A study of Homo sapiens with 18 samples.

Results

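The neutrophil-attracting CXC chemokines studied here are 6 genes, CXCL1, CXCL2, CXCL3, CXCL5, CXCL6 and CXCL8, taken by name from a table of 57500 genes. All 6 were found once in the table, and all 6 were among the 16994 genes that passed the filter on low counts. CXCL6 passed it through Sen (IR) alone, as no library of another group held over 6 of its counts.

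Gene expression was measured by RNA-seq of polyA RNA in 18 libraries of IMR90 human lung fibroblasts, with 3 libraries in each of 6 groups. Prol are proliferating cells without irradiation, and Sen (IR) are cells made senescent by 20 Gy of X-rays. The other 4 groups were irradiated and then given CCCP, an uncoupler of mitochondria used in cells engineered so that it removes the organelle. The first received nothing further (Sen (IR) + CCCP). The next was supplied with acetate and is called Sen (IR) + CCCP + acetate. Another was transfected with mtDNA and is called Sen (IR) + CCCP + mtDNA, and the last, the combination, had both agents. CCCP began 1 day after irradiation, 20 mM sodium acetate on day 3 and transfection of mtDNA on day 10, and cells were collected on day 12. The labels name the cell line only, and they do not say whether Prol and Sen (IR) carry the construct used for removal or received mock treatment. No group is labelled as given the transfection reagent alone or other DNA. Effects of transfection and of mtDNA therefore cannot be told apart. All libraries come from 1 cell line. The labels give only replicate numbers, and the study's reporting summary describes its cell experiments as independent repeats. The comparisons ask how senescence and the loss of mitochondria change these chemokines, and which of them return with acetate or mtDNA.

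These chemokines carry the residues glutamate, leucine and arginine just before the CXC cysteines, which lets them bind the receptors CXCR1 and CXCR2 on neutrophils and draw those cells into tissue. CXCL8, also called interleukin-8, binds both receptors strongly, whereas CXCL1, CXCL2 and CXCL3 (the GRO chemokines) and CXCL5 act mainly through CXCR2, and CXCL6 binds both. They are classical targets of NF-κB downstream of interleukin-1, their mRNAs are short-lived, and senescent fibroblasts secrete them as part of the senescence-associated secretory phenotype (SASP).

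The 6 genes lie within 359 kb of chromosome 4 in GRCh38. In GENCODE release 44, CXCL8 (ENSG00000169429) spans chr4:73740519-73743716, CXCL6 (ENSG00000124875) chr4:73836640-73849064 and CXCL1 (ENSG00000163739) chr4:73869393-73871308, all on the + strand. CXCL5 (ENSG00000163735) at chr4:73995642-73998677, CXCL3 (ENSG00000163734) at chr4:74036589-74038807 and CXCL2 (ENSG00000081041) at chr4:74097040-74099196 lie on the - strand. Each canonical transcript has 4 exons. The pseudogene PPBPP1 lies inside CXCL6 on the same strand, and an antisense lncRNA overlaps CXCL5, so with an unstated strand setting those reads cannot be told apart.

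The stretches of 150 bases before each RefSeq transcription start are shown because they hold a shared run of letters within a family whose members later moved apart. They come from the RefSeq promoters of GRCh38.p14, where all 6 genes had an entry. Capitals mark the NF-κB letters GGAATTTCC and the AP-1 letters TGANTCA, both searched on both strands, and the TATA box TATAAA, searched on the given strand only. The stretches are chr4:73740419-73740568 on the + strand for CXCL8, chr4:73869243-73869392 on the + strand for CXCL1, chr4:74099196-74099345 on the - strand for CXCL2, chr4:74038690-74038839 on the - strand for CXCL3, chr4:73998678-73998827 on the - strand for CXCL5 and chr4:73836528-73836677 on the + strand for CXCL6.
CXCL8: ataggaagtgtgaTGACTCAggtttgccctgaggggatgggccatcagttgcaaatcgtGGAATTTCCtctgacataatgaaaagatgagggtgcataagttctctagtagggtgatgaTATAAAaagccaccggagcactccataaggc
CXCL1: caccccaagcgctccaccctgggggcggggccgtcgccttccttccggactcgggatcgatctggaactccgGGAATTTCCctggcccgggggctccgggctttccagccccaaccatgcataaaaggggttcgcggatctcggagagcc
CXCL2: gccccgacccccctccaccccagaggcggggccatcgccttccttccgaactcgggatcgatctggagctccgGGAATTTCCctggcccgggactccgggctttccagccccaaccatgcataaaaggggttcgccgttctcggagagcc
CXCL3: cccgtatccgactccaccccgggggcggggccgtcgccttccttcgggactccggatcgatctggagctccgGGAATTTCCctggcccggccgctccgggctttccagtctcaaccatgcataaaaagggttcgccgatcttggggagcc
CXCL5: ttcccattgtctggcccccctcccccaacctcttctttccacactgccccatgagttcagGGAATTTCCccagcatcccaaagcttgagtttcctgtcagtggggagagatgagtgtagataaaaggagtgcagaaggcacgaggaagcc
CXCL6: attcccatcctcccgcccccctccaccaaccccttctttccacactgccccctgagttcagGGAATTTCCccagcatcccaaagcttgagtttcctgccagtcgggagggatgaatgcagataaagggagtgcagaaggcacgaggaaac

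GGAATTTCC was present in 6 of 6 members and in 0.461% of the 35116 RefSeq promoters, counted over the full window of 300 bases. It began 91 bases before the start in CXCL8, 90 in CXCL5, 89 in CXCL6, 78 in CXCL1 and CXCL3 and 77 in CXCL2. The AP-1 letters (7.71% of all promoters) and the TATA letters (7.33%) were found in CXCL8 only among the 6. The C/EBP letters TTGCNNAA (3673 of the 35116 promoters, both strands) occurred in CXCL2 only, 188 bases before the start and outside the printed stretch. A looser NF-κB pattern, GGANNNNCC, which includes GGAATTTCC, was present in all 6 and in 53.6% of promoters. These are exact matches of letters, not binding sites, and the members are related copies rather than independent draws. The NF-κB letters were chosen for genes already known as its targets, so their presence is a description and no support for that link. Near matches were not counted. The printed stretches hold ttgcaaat in CXCL8, close to the C/EBP letters. Close to the TATA letters they hold cataaa in CXCL1, CXCL2 and CXCL3 and gataaa in CXCL5 and CXCL6. The printed stretches of CXCL1 and CXCL2 were 88.7% identical in a global alignment, those of CXCL1 and CXCL3 88.1%, those of CXCL2 and CXCL3 86.1% and those of CXCL5 and CXCL6 89.4%, whereas CXCL8 was 39.8% to 44.3% identical to the others. The coding sequences of CXCL1, CXCL2 and CXCL3 were 90.7% to 94.4% identical to each other, and those of CXCL5 and CXCL6 were 87.4% identical. No window of 150 bases, the read length, from any member's canonical transcript occurred exactly in a transcript of another gene, so full-length reads of the copies differ, but counts of the GRO genes and of CXCL5 and CXCL6 remain uncertain to the extent that reads of near-identical copies were split or dropped as not unique. The annotated 3′ ends held 6 to 11 copies of ATTTA, the core of AU-rich elements, with 6 in CXCL1 and CXCL6, 7 in CXCL3, 9 in CXCL8, 10 in CXCL2 and 11 in CXCL5. The median over 19936 protein-coding genes was 2, and 23.9% of them held 6 or more.

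Total counts per library ranged from 24624886 to 46224280. Genes of mtDNA took 1.75% to 2.89% of counts in Prol and Sen (IR) and 0.0461% to 0.237% in the 4 groups given CCCP. The 0.237% was in combination replicate 2, where replicates 1 and 3 of that group had 0.0640% and 0.0624%. Sen (IR) replicate 3 and combination replicate 2 stood apart from their groups, with chi-square values per gene of 25.3 to 31.8 against their mates, where the other pairs had 2.91 to 8.52. Results that rest on them are given without them where they change. All 8 fibroblast markers were above the floor of 3 counts in every library. Of the 8 leukocyte markers 5 to 7 were at or under it in each library, FCGR3B, which marks neutrophils, had 0 counts throughout, and the summed level of the list was at most 2.57 TPM (a length-corrected level). The summed level of 4 endothelial markers was at most 0.426 TPM. That of 4 epithelial markers was 44.0 to 48.4 TPM in Prol, 15.2 to 21.2 in Sen (IR) and 3.75 to 10.6 in the groups given CCCP. KRT19 and EPCAM were detected in every library, KRT5 had at most 1 count and CDH1 at most 14.

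Senescent cells expressed all 6 chemokines at levels that proliferating cells did not approach. In Sen (IR) over Prol, 6 of 6 members rose, tested by edgeR with quasi-likelihood and an adjusted p under 0.05, where 26.7% of all genes tested were higher. CXCL6 is in this count and in each count against Sen (IR) below, but it entered the test only through its level in Sen (IR), so its call there is no support. CXCL8 was at 5.4, 5.63 and 5.92 CPM (counts scaled to a common library size, with TMM factors) in the 3 Prol libraries and at 626, 703 and 843 CPM in the 3 Sen (IR) libraries, replicates 1 to 3 in order here and throughout. CXCL1 was at 0.508, 0.259 and 0.26 CPM in Prol and at 141, 152 and 127 CPM in Sen (IR). For every member the Sen (IR) libraries lay above all Prol libraries. The log2 fold change was 6.99 ± 0.15 (SE) for CXCL8 (adjusted p = 2.69e-19) and 8.71 ± 0.20 for CXCL1 (adjusted p = 8.78e-19). CXCL5, the chemokine first described in activated epithelial cells, was at 0.743, 0.629 and 0.598 CPM in Prol and at 122, 132 and 121 CPM in Sen (IR). It rose by 7.58 ± 0.14 on the log2 scale (adjusted p = 1.06e-20).

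The other 3 members were lower in level and close to absent before irradiation. CXCL3 had 4, 3 and 2 counts in the Prol libraries and 877, 615 and 558 in Sen (IR), a ratio of 212 with a 95% counting interval of 112 to 465. CXCL2 had 0, 0 and 1 counts in Prol and 215, 134 and 117 in Sen (IR), a ratio of 434 whose interval reached from 77.6 to 17194. CXCL6 had 2, 0 and 2 counts in Prol and 311, 136 and 186 in Sen (IR), a ratio of 148 with an interval of 57.3 to 543. The fitted log2 fold changes of these 3 genes were 7.68 ± 0.23, 8.33 ± 0.44 and 7.05 ± 0.49 (adjusted p = 3.63e-17, 7.71e-13 and 6.75e-11), and they depend on the prior count where a group holds so few reads. A library with 0 counts in Prol allows up to 3 counts, and intervals and floors cover counting error only.

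**Figure D1:**
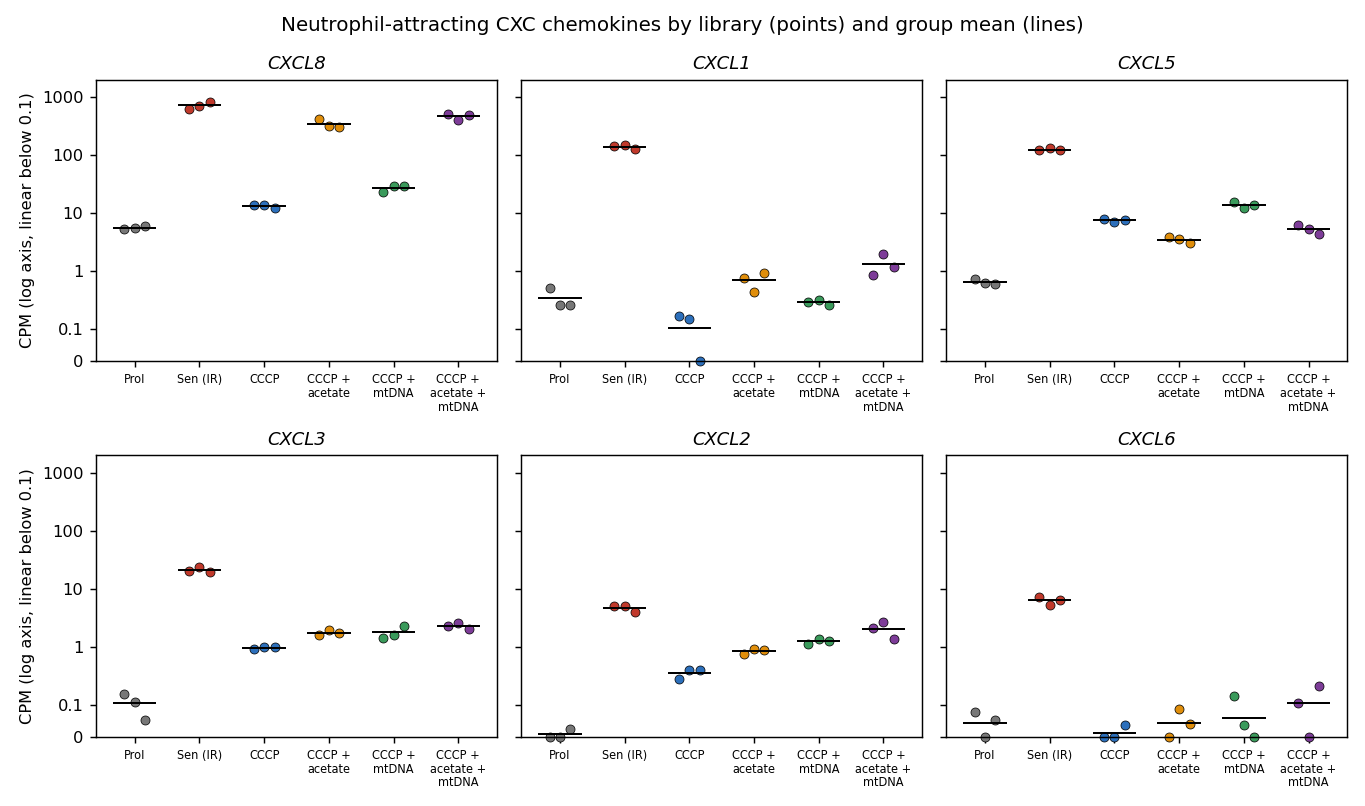
CPM of each chemokine in every library, on an axis that is logarithmic above 0.1 and linear below it, with points for the 3 libraries of a group, ordered by replicate, and lines for their mean. All 6 genes peak in Sen (IR) and fall with CCCP, and of the groups given CCCP those with acetate hold CXCL8 at a mean of 349 and 474 CPM while CXCL1 stays at or below 2.01 CPM in every library.

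Every member was lower in the cells given CCCP to remove mitochondria. No group is labelled as given CCCP without that loss. Effects of CCCP itself, of the construct and of the loss of mitochondria therefore cannot be told apart. In Sen (IR) + CCCP against Sen (IR), 6 of 6 members fell, where 31.3% of all genes tested were lower. CXCL8 was at 13.9, 13.8 and 12.3 CPM, a mean of 13.4 ± 0.895 (SD, n = 3) against 724 ± 109.8 in Sen (IR), and the groups did not overlap. Its log2 fold change was -5.75 ± 0.14 (adjusted p = 1.87e-18). CXCL1 had 6, 6 and 0 counts, which is 0.167, 0.151 and 0 CPM, and the library with 0 allows up to 0.109 CPM. Over the groups this is 12 counts against 13674, a ratio of 1202 in favour of Sen (IR) with a 95% counting interval of 688 to 2327, and the fitted log2 fold change was -10.19 ± 0.23 (adjusted p = 1.11e-18). CXCL6 had 0, 0 and 1 counts against 633 in Sen (IR), a ratio of 668 with an interval of 119 to 26412 (adjusted p = 1.08e-11). CXCL1 and CXCL6 thus lost nearly all of their reads. Of the 8 fibroblast markers all 8 were lower too, with a median log2 fold change of -1.55. Their summed level was 6035 to 6214 TPM against 10552 to 12529 in Sen (IR), and the part of these markers in the result was not tested. The tested epithelial markers fell too, KRT19 by 2.94 ± 0.23 (adjusted p = 2.23e-10) and EPCAM by 1.52 ± 0.30 on the log2 scale (adjusted p = 1.34e-04), as did the endothelial marker VWF (-0.97 ± 0.39, adjusted p = 0.0352), and their part was not tested. The 6 state genes were CDKN1A, CDKN2A, LMNB1, MKI67, CCNA2 and TOP2A, and 5 were higher with CCCP, where 34.0% of all genes tested were higher. MKI67, CCNA2 and TOP2A were at 30.4, 43.1 and 110 CPM (means), against 15.3, 19.4 and 54.8 in Sen (IR). In Prol they were at 59.1, 31.3 and 171 CPM. The part of the state genes was not tested.

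CXCL5, CXCL3 and CXCL2 kept more of their level. CXCL5 was at 7.94, 7.15 and 7.48 CPM, which is 16.6-fold below Sen (IR) (log2 fold change -4.05 ± 0.10, adjusted p = 1.87e-18). CXCL3 was at 0.92, 0.985 and 0.98 CPM and fell 21.9-fold (adjusted p = 3.88e-16). CXCL2 was at 0.279, 0.404 and 0.399 CPM and fell 13.1-fold (adjusted p = 1.34e-11). In these bulk libraries, fewer cells expressing a chemokine and less RNA per cell cannot be told apart.

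Against proliferating cells, the mitochondria-depleted cells held 4 of the 6 chemokines at a higher and 1 at a lower level, where 35.1% of all genes tested were higher and 34.1% lower. CXCL5 was higher by a log2 fold change of 3.53 ± 0.17 (adjusted p = 5.58e-14), CXCL3 by 3.23 ± 0.37 (adjusted p = 7.44e-08) and CXCL8 by 1.24 ± 0.15 (adjusted p = 2.36e-07). CXCL2 had 37 counts against 1 in Prol, a ratio of 32.7 with a counting interval of 5.52 to 1326 (adjusted p = 1.13e-05). For these 4 genes the libraries of the groups did not overlap. CXCL1 was lower, with 12 counts against 30 in Prol (log2 fold change -1.47 ± 0.65, adjusted p = 0.0494). That call was lost when any of 4 single libraries was left out, Prol replicate 1 or 2 or Sen (IR) + CCCP replicate 2 or 3 (adjusted p = 0.0531 to 0.179). CXCL6 had 1 count against 4 and did not pass the test (adjusted p = 0.299).

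Acetate brought CXCL8 back far more than any other member. In Sen (IR) + CCCP + acetate against Sen (IR) + CCCP, 4 of 6 members rose and 1 fell, where 28.8% of all genes tested were higher and 28.3% lower. CXCL8 was at 417, 319.5 and 309.8 CPM, all above the CCCP libraries, a mean of 349 ± 59.3 CPM (SD, n = 3). It was 26-fold higher, a log2 fold change of 4.70 ± 0.13 (adjusted p = 7.04e-17). CXCL1 rose from 12 to 87 counts, with 0.76, 0.441 and 0.944 CPM, a log2 fold change of 2.58 ± 0.52 (adjusted p = 1.91e-04). Its level with acetate remained 195-fold below Sen (IR), a log2 fold change of -7.61 ± 0.18 (adjusted p = 7.33e-19), where CXCL8 was 2.08-fold below (log2 fold change -1.05 ± 0.11, adjusted p = 1.66e-08).

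CXCL2 and CXCL3 rose less, and CXCL5 went the other way. CXCL2 was at 0.76, 0.903 and 0.881 CPM (log2 fold change 1.25 ± 0.30, adjusted p = 0.00107) and CXCL3 at 1.62, 1.92 and 1.76 CPM (0.89 ± 0.19, adjusted p = 3.87e-04), each above all CCCP libraries. CXCL5 fell to 3.91, 3.57 and 3.00 CPM, below all CCCP libraries, with a log2 fold change of -1.12 ± 0.12 (adjusted p = 3.75e-08). CXCL6 had 0, 4 and 2 counts, 6 in all against 1, a ratio of 5.07 whose counting interval of 0.615 to 233 includes no change (adjusted p = 0.251). The leukocyte marker CD14, at 27 counts or fewer in any library, was higher with acetate as well (log2 fold change 1.39 ± 0.42, adjusted p = 0.00728), and so was the epithelial marker KRT19 (0.95 ± 0.27, adjusted p = 0.00486), while EPCAM was lower (-1.26 ± 0.38, adjusted p = 0.00746). Of the 8 fibroblast markers, 3 were higher and 4 lower with acetate. The 6 state genes had 2 higher and 4 lower, where 28.8% of all genes tested were higher and 28.3% lower. MKI67, CCNA2 and TOP2A were at means of 3.19, 7.79 and 18.6 CPM with acetate. The part of these markers and state genes in the results was not tested. All 6 members stayed below Sen (IR), where 32.7% of all genes tested were lower in that comparison.

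mtDNA raised 4 of the 6 members by modest amounts, where 10.7% of all genes tested were higher in Sen (IR) + CCCP + mtDNA against Sen (IR) + CCCP, and none of the 6 was lower. CXCL2 rose most, to 1.12, 1.37 and 1.26 CPM, a log2 fold change of 1.79 ± 0.29 (adjusted p = 1.26e-04). CXCL8 was at 23.6, 29 and 29 CPM, 2.03-fold above the CCCP cells (log2 fold change 1.02 ± 0.13, adjusted p = 5.38e-06). CXCL5 rose to 15.4, 12.2 and 13.9 CPM (0.88 ± 0.10, adjusted p = 1.58e-06) and CXCL3 to 1.41, 1.62 and 2.29 CPM (0.89 ± 0.20, adjusted p = 0.00294). The mtDNA libraries lay above all CCCP libraries for each of these 4 genes. CXCL1 had 8, 9 and 8 counts, 25 in all against 12, and did not pass the test (log2 fold change 1.29 ± 0.68, adjusted p = 0.217). CXCL6 had 4, 1 and 0 counts and did not pass either (adjusted p = 0.349). The epithelial marker KRT19 was also higher (0.90 ± 0.29, adjusted p = 0.0335). Of the 8 fibroblast markers 3 were lower and none higher, where 7.40% of all genes tested were lower. The part of these markers was not tested. Without a group labelled as given the reagent alone, these rises cannot be divided between transfection and mtDNA. All 6 members stayed below Sen (IR), where 32.5% of all genes tested were lower, and CXCL8 remained 26.6-fold below it.

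Acetate and mtDNA were also compared with each other. Of the 6 members, 2 were higher with acetate and 1 was lower, where 30.3% of all genes tested were higher and 31.0% lower. CXCL8 was 12.8-fold higher with acetate (log2 fold change 3.68 ± 0.12, adjusted p = 8.48e-16), CXCL1 was 2.45-fold higher (1.29 ± 0.44, adjusted p = 0.0145) and CXCL5 was 4.01-fold lower (adjusted p = 1.56e-12). The call on CXCL1 was lost without acetate replicate 3 (adjusted p = 0.0967). CXCL2 was lower with acetate by 0.54 ± 0.24 on the log2 scale at an adjusted p of 0.0596, although its groups did not overlap. CXCL3 had a difference of -0.0045 ± 0.17 and CXCL6 of -0.23 ± 1.06, and neither passed the test. The direct contrast therefore placed CXCL8 and CXCL5 on opposite sides of the treatments. Acetate began on day 3 and mtDNA on day 10, so the agent and the length of exposure cannot be told apart.

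**Figure D2:**
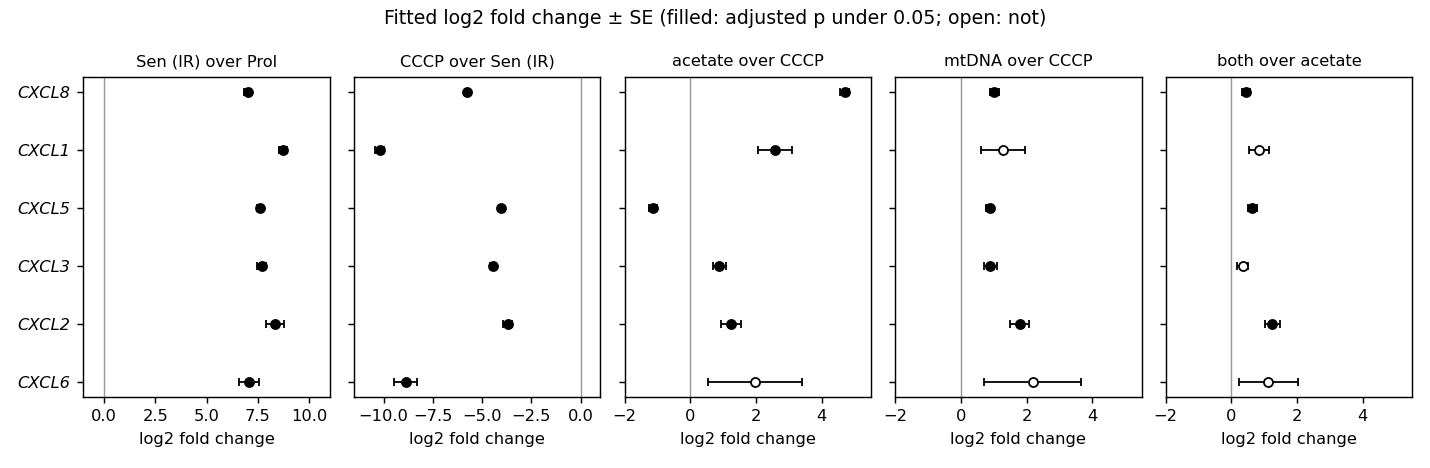
Fitted log2 fold changes (points) with their SE (bars) for each chemokine in 5 comparisons, filled where the adjusted p is under 0.05. With acetate CXCL8 stands at 4.70 and CXCL5 at -1.12, whereas with mtDNA the 4 called members lie between 0.88 and 1.79.

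Cells given both agents held CXCL8, CXCL1, CXCL2 and CXCL3 above and CXCL5 below the cells given neither. With CXCL6, 5 of 6 members were called higher and 1 lower, where 30.3% of all genes tested were higher and 31.4% lower, but the CXCL6 call rests on too few counts to be read as a rise. CXCL8 was at 512, 409 and 501 CPM, a mean of 474 ± 56.4 (SD, n = 3) and 35.3-fold above the CCCP cells (log2 fold change 5.14 ± 0.13, adjusted p = 1.49e-17). CXCL1 was at 0.844, 2.01 and 1.19 CPM, 10.7-fold higher (3.42 ± 0.47, adjusted p = 1.81e-06), CXCL2 at 2.12, 2.66 and 1.37 CPM, 5.62-fold higher (2.49 ± 0.27, adjusted p = 5.53e-08), and CXCL3 at 2.29, 2.54 and 2.00 CPM, 2.35-fold higher (1.23 ± 0.19, adjusted p = 8.13e-06). CXCL5, at 6.24, 5.37 and 4.34 CPM, remained below the CCCP cells (-0.49 ± 0.12, adjusted p = 9.27e-04). CXCL6 had 4, 0 and 6 counts, 10 against 1, a ratio of 11.5 with a counting interval of 1.63 to 499 and overlapping libraries (adjusted p = 0.041). That call was lost without any of 4 single libraries, CCCP replicate 1 or 2 or combination replicate 1 or 3 (adjusted p = 0.0707 to 0.189).

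Adding mtDNA to acetate raised 3 of 6 members, where 6.57% of all genes tested were higher. CXCL2 rose by a log2 fold change of 1.25 ± 0.23 (adjusted p = 7.77e-04), CXCL5 by 0.64 ± 0.13 (adjusted p = 0.00167) and CXCL8 by 0.44 ± 0.11 (adjusted p = 0.00878). The CXCL2 and CXCL5 libraries did not overlap, and the CXCL8 libraries did, since acetate replicate 1 exceeded combination replicate 2. Leaving out acetate replicate 2 or replicate 3 ended the CXCL8 call (adjusted p = 0.0586 and 0.0664). CXCL3 (0.35 ± 0.17, adjusted p = 0.187), CXCL1 (0.84 ± 0.30, adjusted p = 0.0741) and CXCL6 (1.12 ± 0.91, adjusted p = 0.468) did not pass the test. CXCL1 did pass without acetate replicate 3 (adjusted p = 0.046) or combination replicate 1 (adjusted p = 0.0192).

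Adding acetate to mtDNA raised 3 members and lowered 1, where 27.4% of all genes tested were higher and 29.9% lower. CXCL8 rose 17.4-fold (log2 fold change 4.12 ± 0.13, adjusted p = 2.59e-16), CXCL1 rose 4.39-fold (2.13 ± 0.41, adjusted p = 1.12e-04) and CXCL2 rose 1.63-fold (0.71 ± 0.23, adjusted p = 0.0106). CXCL5 fell 2.58-fold (-1.37 ± 0.11, adjusted p = 5.96e-10). The CXCL2 call rests on combination replicate 2, the library that stands apart, and was lost without it (0.52, adjusted p = 0.0698). CXCL3 differed by 0.34 ± 0.18 (adjusted p = 0.102) and passed without mtDNA replicate 3 (adjusted p = 0.0097).

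With both agents all 6 members still lay below Sen (IR), where 34.7% of all genes tested were lower. The remaining difference was smallest for CXCL8, 1.53-fold (log2 fold change -0.61 ± 0.11, adjusted p = 3.39e-05), followed by CXCL2 at 2.33-fold, CXCL3 at 9.30-fold, CXCL5 at 23.2-fold and CXCL1 at 109-fold (adjusted p from 3.53e-19 to 8.34e-06). For CXCL6, 10 counts stood against 633, a ratio of 58.1 with a counting interval of 31.4 to 122.

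Whether mtDNA acts differently in the presence of acetate was tested by the interaction, that is the mtDNA effect in acetate-treated cells less the mtDNA effect in cells without acetate. It was called for 0 of 6 members by edgeR, where 0.659% of all genes tested were called. At an unadjusted p under 0.05 the counts were 2 of 6 members, CXCL8 and CXCL3, and 1938 of 16994 genes, and DESeq2 called 0 of 6. CXCL8 had the smallest p of the 6 members, with an interaction of -0.58 ± 0.17 (adjusted p = 0.141). It passed when no filter on low counts was used (adjusted p = 5.63e-08) and when both libraries that stand apart were left out (-0.48 ± 0.13, adjusted p = 0.0341), the latter a setting chosen after seeing the data. The estimates for the other 5 members were also below 0, from -0.24 ± 0.16 for CXCL5 to -1.06 ± 1.62 for CXCL6, and none was called. Over all genes tested, 0.583% were called lower and 0.0765% higher. These estimates compare fold changes on the log2 scale, and their sign need not hold for amounts. In linear CPM, mean CXCL8 went with mtDNA from 13.4 to 27.2 without acetate and from 349 to 474 with it. Mean CXCL5 went from 7.52 to 13.8 without acetate and from 3.49 to 5.32 with it. An interaction in linear CPM was not tested.

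The share of the fall with CCCP that returned differed between members in size and in sign. On the log2 scale of the fitted group means, CXCL8 regained 81.7% with acetate, 17.7% with mtDNA and 89.4% with both. CXCL2 regained 33.6%, 48.2% and 67.2%, CXCL3 19.9%, 20.04% and 27.7%, and CXCL1 25.3%, 12.6% and 33.6%. The CXCL1 shares rest on 12 counts in Sen (IR) + CCCP, and its change with mtDNA did not pass the test. CXCL5 moved further from Sen (IR) with acetate (-27.7%), regained 21.7% with mtDNA and stood at -12.0% with both. These are descriptions with no test, and they depend on the scale. In linear CPM, CXCL8 regained 47.2% with acetate, 1.94% with mtDNA and 64.8% with both, and CXCL1 at most 0.886%.

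**Figure D3:**
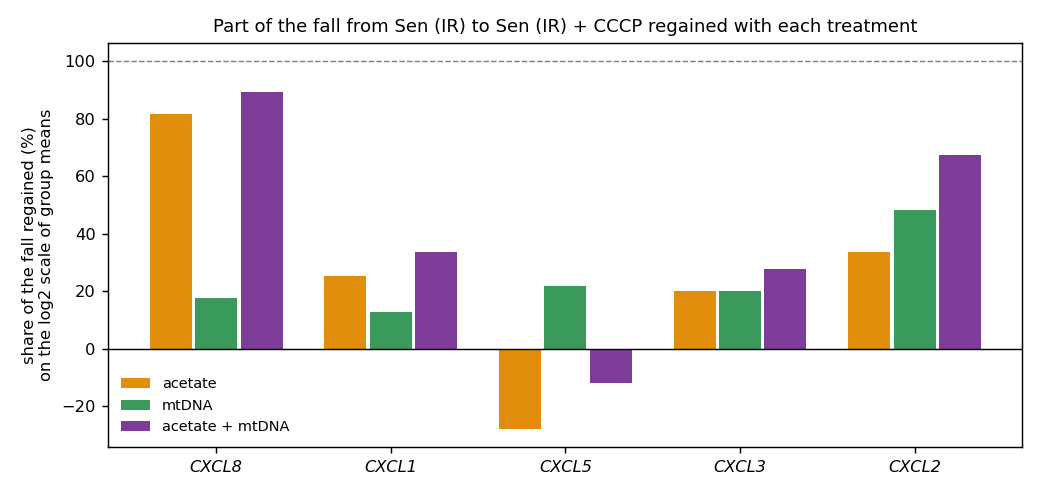
Percent of each gene's fall from Sen (IR) to Sen (IR) + CCCP regained with acetate, mtDNA or both, from fitted group means on the log2 scale, with a dashed line at 100% (the Sen (IR) level). CXCL8 reaches 89.4% with both, CXCL2 67.2%, and the CXCL5 bars for acetate and for both lie below 0. CXCL6 is left out because its depleted groups hold 10 counts or fewer. CXCL1 is shown, but its Sen (IR) + CCCP group holds 12 counts.

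The mixture of chemokines changed with its amount. Levels between genes were compared in TPM, as deposited. The 6 genes summed to 11.6 ± 0.203 TPM in Prol (SD, n = 3 here and below), 1958 ± 185 in Sen (IR), 51.5 ± 2.57 in Sen (IR) + CCCP, 783 ± 123 with acetate, 98.2 ± 5.96 with mtDNA and 1047 ± 133 with both. The sum with acetate was 40.0% of that in Sen (IR), and with both agents 53.5%, and no library of these groups reached the lowest Sen (IR) library (1775 TPM). In Sen (IR), CXCL8 was 64.6% of the summed TPM, CXCL1 22.2% and CXCL5 10.1%. In Sen (IR) + CCCP, CXCL8 was 61.2%, CXCL5 30.9% and CXCL1 0.831%. With acetate CXCL8 was 97.9% of the sum and with both agents 97.3%, and no other member reached 1% as a group mean. With mtDNA alone the mixture was close to that of the CCCP cells, with CXCL8 at 61.8% and CXCL5 at 28.4%.

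**Figure D4:**
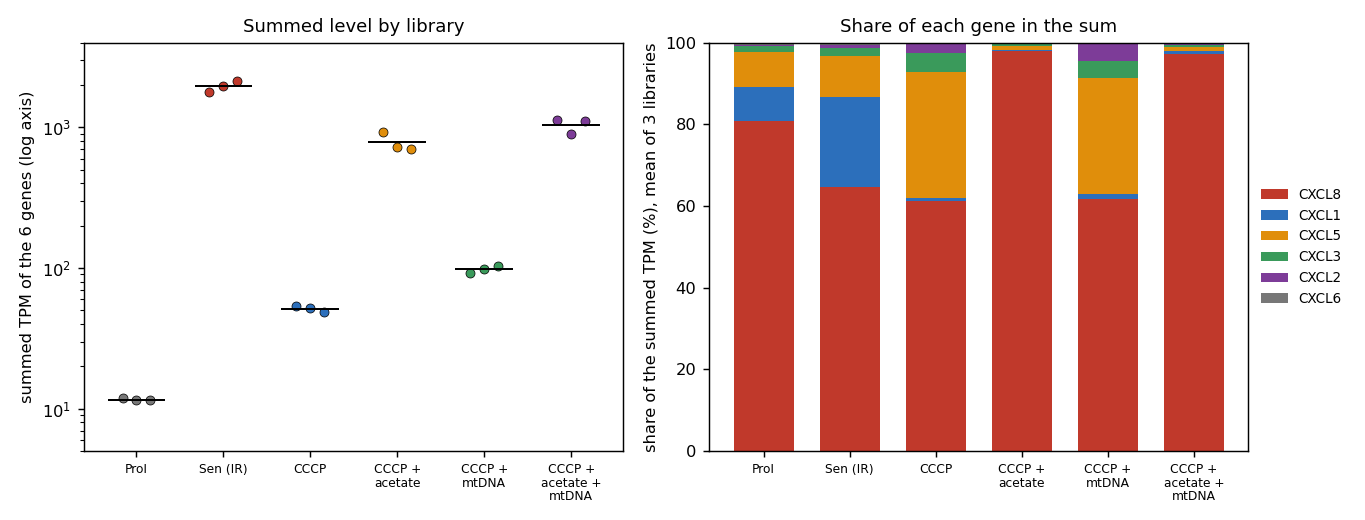
Left, the summed TPM of the 6 genes in each library (points) with group means (lines), on a log axis. Right, the mean share of each gene in that sum, in percent, where CXCL8 takes 97.9% with acetate and 97.3% with both agents, against 64.6% in Sen (IR), and CXCL1 falls from 22.2% in Sen (IR) to 0.831% with CCCP.

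Within each library, the TPM of CXCL8 over that of CXCL5 was 5.74, 5.93 and 7.80 in Sen (IR) and 1.96, 2.16 and 1.84 in Sen (IR) + CCCP. It was 119, 99.9 and 115 with acetate, 1.71, 2.65 and 2.32 with mtDNA, and 91.6, 85.1 and 129 with both. The groups with acetate were above all others. The pair was chosen after its values were seen, so this is a description.

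The members with the most alike upstream sequences were not always the most alike in expression. As a measure of likeness, the root mean square difference of mean-centred log2 CPM over the 18 libraries was taken, where 0 is an identical profile. CXCL2 and CXCL3 were the closest of the 15 pairs (0.70), followed by CXCL3 and CXCL5 (0.81). CXCL1 and CXCL2, whose printed stretches above are 88.7% identical, were the farthest apart (2.47). CXCL1 was closest to CXCL6 (1.43), the other member that lost nearly all reads with CCCP. CXCL5 and CXCL6, with stretches 89.4% identical, differed by 1.53. Levels of CXCL1, CXCL2 and CXCL6 near the floor enter these distances.

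Of the genes outside the 6, CCL20, a chemokine that attracts lymphocytes and dendritic cells through CCR6, had the profile most like the mean of the members (0.82 over 18 libraries). MMP12 (1.00) and MMP10 (1.04), which are matrix metalloproteinases, and LINC02015 (1.01) and GKN3P (1.02) came next. For CXCL8 alone the nearest were CCL20 (0.92), IL1B (1.29), IL20 (1.57), IL1A (1.58) and PTGS2 (1.58), the last being the inducible cyclooxygenase.

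The inputs of the interleukin-1 pathway were taken from a list of 14 genes, of which 13 could be tested. In Sen (IR) over Prol 3 were higher and 6 lower (median log2 fold change 0.00), in Sen (IR) + CCCP against Sen (IR) 3 were higher and 7 lower (-0.22), with acetate 7 were higher and 2 lower (0.20) and with mtDNA 6 were higher and none lower (0.22). Over all genes tested the shares higher and lower were 26.7% and 29.9% in Sen (IR) over Prol, 34.0% and 31.3% with CCCP, 28.8% and 28.3% with acetate and 10.7% and 7.40% with mtDNA, and the medians of these 4 comparisons lay between -0.01 and 0.03. IL1A, which signals from damaged or senescent cells, was at 8.47 ± 1.65 CPM in Sen (IR) (SD, n = 3), 0.65 ± 0.202 with CCCP, 39.2 ± 1.70 with acetate, 1.41 ± 0.196 with mtDNA and 50.9 ± 6.54 with both. IL1B was at 30.9 ± 0.955, 5.29 ± 0.59, 56.1 ± 8.65, 6.3 ± 1.07 and 62.9 ± 5.10 CPM in the same order. With acetate both stood above Sen (IR), by log2 fold changes of 2.22 ± 0.11 for IL1A (adjusted p = 1.56e-13) and 0.86 ± 0.09 for IL1B (adjusted p = 3.87e-08), whereas every member of the chemokine group stood below it. MYD88, of the same list, had another pattern. It was at 40.4 ± 2.40 CPM in Sen (IR), 28.4 ± 0.715 with CCCP, 15.9 ± 0.870 with acetate, 105 ± 11.1 with mtDNA and 39.0 ± 20.1 with both.

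Among 15 transcription factors and inhibitors of the NF-κB, AP-1 and C/EBP families, all tested, 5 were higher and 5 lower in Sen (IR) over Prol, and 5 were higher and 10 lower with CCCP (medians -0.01 and -0.46). Over all genes 26.7% were higher and 29.9% lower in the first comparison and 34.0% and 31.3% in the second, so the counts of 5 were near the share over all genes. With acetate 10 were higher and 4 lower (median log2 fold change 0.43), and with mtDNA 9 were higher and none lower (0.30), against 28.8% and 28.3% of all genes with acetate and 10.7% and 7.40% with mtDNA. NFKBIZ, an inducible co-activator of NF-κB targets, was at 148 ± 1.71 CPM in Sen (IR), 32.5 ± 3.31 with CCCP, 67.3 ± 5.20 with acetate and 28.6 ± 2.63 with mtDNA. NFKBIA, the feedback inhibitor of NF-κB, fell with CCCP by 1.61 on the log2 scale and rose with acetate by 1.33 ± 0.07 (adjusted p = 9.94e-13), and CEBPD fell with acetate by 1.17 ± 0.18 on the log2 scale (adjusted p = 7.1e-06). With mtDNA the largest changes were in RELB (1.05 ± 0.11, adjusted p = 3.52e-07) and ATF3 (0.76 ± 0.10, adjusted p = 4.82e-06). FOS, a subunit of AP-1, rose with CCCP (log2 fold change 3.30 ± 0.15, adjusted p = 2.4e-14) and fell with acetate (-1.07 ± 0.11, adjusted p = 3.98e-08).

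Regulators of AU-rich mRNAs, 9 genes and all tested, were 6 higher and 2 lower with CCCP, 4 higher and 4 lower with acetate, and 2 higher and none lower with mtDNA (medians 0.26, 0.04 and 0.07). The shares over all genes were 34.0% higher and 31.3% lower with CCCP, 28.8% and 28.3% with acetate and 10.7% and 7.40% with mtDNA. ZC3H12A, the endonuclease Regnase-1, which is itself an NF-κB target and cleaves cytokine mRNAs, was at 25.7 ± 2.23 CPM in Sen (IR), 2.58 ± 0.589 with CCCP, 5.13 ± 0.207 with acetate and 2.20 ± 0.514 with mtDNA. ZFP36, which encodes tristetraprolin, was higher with CCCP by 0.64 ± 0.10 (adjusted p = 1.17e-05) and lower with acetate by 0.29 ± 0.10 on the log2 scale (adjusted p = 0.0144).

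The growth factors of neutrophils, the receptors and the neighbouring genes were also read. CSF2, which encodes GM-CSF, was at 20.7 ± 1.34 CPM in Sen (IR), 0.566 ± 0.0796 with CCCP, 6.92 ± 1.20 with acetate, 0.624 ± 0.0425 with mtDNA and 8.68 ± 0.459 with both. CSF3, which encodes G-CSF, had 18 to 24 counts in the Sen (IR) libraries and at most 3 in any other library. The receptors CXCR1, CXCR2 and ACKR1 had at most 2 counts in any library, and the other CXC genes of the locus, PF4, PF4V1 and PPBP, at most 4. None of these 6 genes passed the filter. Of 7 flanking genes of the locus 5 were tested. In Sen (IR) over Prol all 5 were higher, as were the members, where 26.7% of all genes were higher (median log2 fold change of the 5, 2.43). BTC among them had at most 10 counts in a Sen (IR) library. With CCCP 3 of them were higher and 1 lower (34.0% and 31.3% of all genes), and with acetate 2 were higher and none lower (28.8% and 28.3%). EREG, a growth factor of the epidermal growth factor family, was at 31.5 ± 1.69 CPM in Sen (IR), 36.0 ± 1.61 with CCCP and 97.4 ± 3.95 with acetate, and AREG, of the same family, at 6.15 ± 0.528, 21.8 ± 1.02 and 41.3 ± 2.02. Both were higher with CCCP (adjusted p = 0.028 and 1.82e-12) and rose further with acetate (adjusted p = 2.13e-13 and 1.32e-08). MTHFD2L was also higher with CCCP (log2 fold change 1.00 ± 0.11, adjusted p = 9.55e-08), whereas PARM1 fell (-1.24 ± 0.19, adjusted p = 7.95e-06) and BTC did not pass the test (-1.65 ± 0.85, adjusted p = 0.0959). None of these last 3 passed the test with acetate (adjusted p = 0.136, 0.261 and 0.363).

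CXC chemokines without the glutamate-leucine-arginine residues act mainly on other leukocytes. Of 8 listed, 4 were tested. CXCL10, an interferon-inducible ligand of CXCR3, was at 332 ± 16.8 CPM in Sen (IR), 1.38 ± 0.219 with CCCP, 11.4 ± 4.02 with acetate and 137 ± 50.9 with mtDNA. CXCL11, another ligand of CXCR3, was at 10.3 ± 1.93 CPM in Sen (IR), 0.0466 ± 0.0256 with CCCP, 0.697 ± 0.211 with acetate and 39.4 ± 11.9 with mtDNA. The other tested genes, CXCL12 and CXCL16, did not pass the test with CCCP (log2 fold changes 0.16 ± 0.17 and -0.24 ± 0.34, adjusted p = 0.429 and 0.544) or with mtDNA (-0.24 ± 0.17 and 0.73 ± 0.33, adjusted p = 0.395 and 0.136), and both were lower with acetate (-1.96 ± 0.20 and -1.39 ± 0.39, adjusted p = 1.73e-08 and 0.00399). In acetate against mtDNA all 4 tested genes were lower, where 31.0% of all genes were lower. Of the 6 members, CXCL8 and CXCL1 were higher in that comparison, CXCL5 was lower, and CXCL2, CXCL3 and CXCL6 did not pass the test. The difference between the list and the members was not tested.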

How the data were processed

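PolyA RNA was sequenced as paired reads of 150 bases in 18 libraries, 3 in each of 6 groups taken from the labels. Trimming used Trimmomatic (0.36), alignment to the GRCh38 build used STAR (2.5.2b), and featureCounts of Subread (1.5.2) then tallied exonic reads that mapped uniquely, with versions from the submitters' processing notes. The strand setting is not given in the sources used here. The authors deposited raw counts per gene, and the authors also deposited TPM, which was used to compare levels between genes.

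Counts were fitted with edgeR 4.0.16 (R 4.3.3): filtering by group with filterByExpr, TMM scaling, 1 model of 6 group means over 18 libraries, quasi-likelihood tests, and Benjamini-Hochberg adjustment over 16994 genes at 0.05. SE is the log2 fold change over the square root of F. CPM uses TMM-scaled totals, which ranged before scaling from 24624886 to 46224280 counts. Ratios with few counts have 95% exact counting intervals. The procedure was tested on simulated data. Sequences were aligned with Biopython 1.88. Alternatives were DESeq2 1.42.0, other filters, a replicate block, fits on the compared groups alone and leaving out libraries. Beyond the 6 members, genes were named where they led the lists in a comparison or were nearest in profile. The state genes were planned as a check of the labels. ZFP36, the flanking genes, CXCL12, CXCL16, the markers of other cell types and the pairwise ratios were chosen after their values were seen. The members and lists were chosen with earlier results of these data known. Proteins were not analysed here.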

Additional observations from a re-analysis of the deposited data

How the results depend on the processing

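The number of members called kept within 1.5 times under DESeq2, DESeq2 size factors, the replicate block and each left-out library. Requiring 10 counts in every library left only CXCL5 and CXCL8 to be tested. Then 2 members were called in each comparison whose count changed by more than 1.5 times. These were Sen (IR) against Prol, CCCP against Prol and against Sen (IR), acetate, mtDNA and the combination each against Sen (IR) and against CCCP, and the combination against mtDNA. With only the groups compared, 3 members were called in CCCP against Prol. The interaction had 1 call, CXCL8, without a filter on low counts and 1 without both libraries that stand apart, and the cause was not tested.

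The share regained by CXCL8 was 47.2% with acetate, 1.94% with mtDNA and 64.8% with both in linear CPM, and 86.2% with acetate and 94.1% with both on log2 of TPM + 1. Summed CPM in percent of Sen (IR) was 0.667 in Prol, 2.19 with CCCP and 4.35 with mtDNA. By library, summed CPM was 922, 1021 and 1120 in Sen (IR), 424, 326 and 316 with acetate and 523, 422 and 510 with both. Leaving out each library in turn, summed TPM ranged from 0.566% to 0.623% in Prol and from 2.51% to 2.76% with CCCP, the highest without Sen (IR) replicate 3. In the same way it ranged from 36.4% to 42.2% with acetate, 4.79% to 5.27% with mtDNA and 51.1% to 57.4% with both.

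Directions changed for results that did not pass the test. CXCL3 in acetate against mtDNA was 0.010 on the log2 scale without a filter and -0.13 to 0.25 without single libraries. CXCL6 ranged from -1.03 to 1.35 there and from -2.90 to 0.50 for the interaction.

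The replicate numbers did not pair the libraries, since the deviations of same-numbered libraries correlated at -0.082 to 0.092. With the replicate block, 4 members were called in acetate against mtDNA, with CXCL2 added at an adjusted p of 0.0499, and the count of members called was the same in each other comparison. CXCL2 also passed there with only the groups compared (adjusted p = 0.0492). Without a filter, CXCL1 passed in the combination against acetate (adjusted p = 0.00215). CXCL2, CXCL3, CXCL6 and CXCL1 rest on few counts outside Sen (IR), where depth limits what can be shown.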
